A study of Mus musculus with 32 samples.

Results

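The 9 genes described were followed through 32 wells of cultured melanoma cells: the IFN-γ receptor chains Ifngr1 and Ifngr2, the type I interferon receptor chains Ifnar1 and Ifnar2, the Janus kinases Jak1 and Jak2, and the transcription factors Stat2, Stat3 and Stat6. The rule that chose them goes by name and uses no measured value, although earlier results of these data were known when they were chosen, and all 9 had a row among the 12451 genes of the count table. The cells were YUMM3.3, a line of the Yale University Mouse Melanoma collection, seeded in 6-well plates and either left untreated (NT) or treated with 40 ng/ml Activin-A (ActA), 20 ng/ml IFN-γ (IFNy) or both factors (ActA_IFNy) for 4 or 12 hrs. This gave 8 groups of 4 wells. The Activin-A dose of 40 ng/ml is that of the study's methods, while its figure legends for this experiment give a higher dose. Activin-A is a ligand of the TGF-β family and IFN-γ is the type II interferon. Wells of a single line cultured without stroma or immune cells limit the model, and the p-values below measure only the spread between wells. The library method, Bulk RNA Barcoding and sequencing (BRB-seq), tags each well's RNA with a barcode during reverse transcription and counts the 3′ ends of transcripts.

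IFN-γ binds a receptor made of IFNGR1 and IFNGR2 chains, which carry the kinases JAK1 and JAK2. The kinases phosphorylate the receptor and STAT transcription factors, which dimerise, enter the nucleus and bind GAS elements in DNA. Type I interferons use IFNAR1 and IFNAR2 instead, and their signal passes through STAT2, which joins IRF9 in a complex that binds interferon-stimulated response elements (ISREs). STAT3 is better known as the transducer of interleukin-6 type cytokines, and STAT6 as that of interleukins 4 and 13.

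The total count per well ranged from 654539 to 1455074, so that the floor of 3 counts lay between 2.06 and 4.58 CPM (counts scaled to the size of the library), for counting error only. All 8 melanocyte lineage markers had a row, and their summed level was 321 to 459 CPM per well. Of the leukocyte markers 3 of 8 had a row, with a summed level of 2.92 to 25.8 CPM. Of the fibroblast markers 3 of 5 had one, with a summed level of 34.7 to 74.7 CPM. Their medians were 38.3 CPM for Col1a1, 13.5 CPM for Pdgfra and 0 CPM for Dcn. None of the 3 endothelial markers had a row. Irf1, a direct IFN-γ target, averaged 42.0 ± 1.5 CPM in untreated wells and 778 ± 19.1 CPM with IFN-γ at 4 hrs (SD, n = 4 each). Ccn2, a TGF-β and activin target, averaged 77.9 ± 12.6 CPM in untreated wells and 264 ± 30.1 CPM with Activin-A at 4 hrs. Well 1 of ActA at 4 hrs stood apart: its counts differed from those of its fellow wells by a chi-square of at least 2.45 per gene, against at most 1.54 for any other pair of replicate wells.

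The promoters of 4 genes that rose with IFN-γ are shown because Stat2 and Ifnar2 held an interferon-type motif in the window searched, while Stat3 and Jak2 held none. Each line gives the 250 bases before the RefSeq start on the gene's own strand, 5′ to 3′, in build GRCm38.p6, at chr10:128270248-128270497 (Stat2, plus strand), chr16:91372533-91372782 (Ifnar2, plus strand), chr11:100939541-100939790 (Stat3, minus strand) and chr19:29251553-29251802 (Jak2, plus strand). Capitals mark the motif matches.
Stat2: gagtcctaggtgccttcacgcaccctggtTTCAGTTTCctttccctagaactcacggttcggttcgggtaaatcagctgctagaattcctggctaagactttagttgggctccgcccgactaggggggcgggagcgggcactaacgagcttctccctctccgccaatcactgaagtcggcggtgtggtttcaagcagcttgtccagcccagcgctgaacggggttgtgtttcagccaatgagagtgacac
Ifnar2: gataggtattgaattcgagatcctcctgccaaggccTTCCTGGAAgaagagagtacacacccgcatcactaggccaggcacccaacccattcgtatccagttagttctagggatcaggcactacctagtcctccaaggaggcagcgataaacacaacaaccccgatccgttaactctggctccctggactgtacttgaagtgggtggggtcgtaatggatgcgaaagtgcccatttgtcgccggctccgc
Stat3: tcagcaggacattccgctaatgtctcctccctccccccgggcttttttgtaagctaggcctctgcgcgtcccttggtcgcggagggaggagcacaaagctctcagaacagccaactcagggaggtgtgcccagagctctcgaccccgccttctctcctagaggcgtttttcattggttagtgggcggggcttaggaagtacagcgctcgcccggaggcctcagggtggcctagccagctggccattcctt
Jak2: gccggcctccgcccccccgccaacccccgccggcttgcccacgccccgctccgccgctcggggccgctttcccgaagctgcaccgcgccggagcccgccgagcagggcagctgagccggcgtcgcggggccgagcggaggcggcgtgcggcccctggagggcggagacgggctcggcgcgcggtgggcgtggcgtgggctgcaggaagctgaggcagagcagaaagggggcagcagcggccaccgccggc

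The motifs searched were a GAS-type motif, TTCNNNGAA, and an ISRE-type motif, GAAANNGAA, on both strands of a window from 250 bases before to 50 bases after the start. These matches are descriptions of letters and not binding sites. Stat2 held the ISRE-type motif on the opposite strand, at −221 to −213 from the start. Ifnar2 held the GAS-type motif at −214 to −206. Ifnar1, which is not printed, held the GAS-type motif across its start, as TTCACGGAA from −5 to 4. The windows of the other 6 genes held neither motif, which says only that these letters were not in these windows, since other start sites of the same genes were not searched. Among all 32851 RefSeq promoters of this length, 8.30% held the GAS-type motif and 8.56% the ISRE-type motif. The window of Jak2 was the richest in G and C of the 9, at 81.0%, against a median of 52.7% over all promoters. Ifnar2, Il10rb, Ifnar1 and Ifngr2 lie next to each other in this order on chromosome 16, between Olig1 and Tmem50b.

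With IFN-γ alone, Stat2 and Stat3 rose 3.88- to 5.47-fold, Jak2 rose 1.56-fold at 4 hrs and 1.59-fold at 12 hrs, Ifnar2 rose at 12 hrs, and Ifngr2 fell at 4 hrs. A gene was called when its adjusted p was under 0.05, by the quasi-likelihood test of edgeR and the Benjamini-Hochberg method over all genes tested. At 4 hrs 4 of the 9 genes were called, of which 3 were higher and 1 was lower; the test called 5.06% of all 9137 genes, 4.29% as higher and 0.766% as lower. At 12 hrs 4 of the 9 were called, all higher, against 9.25% of all 8971 genes called and 6.43% called as higher. The median log2 fold change of the 9 was 0.06 at 4 hrs and 0.18 at 12 hrs, and that of all genes was −0.01 at both times.

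**Figure D1:**
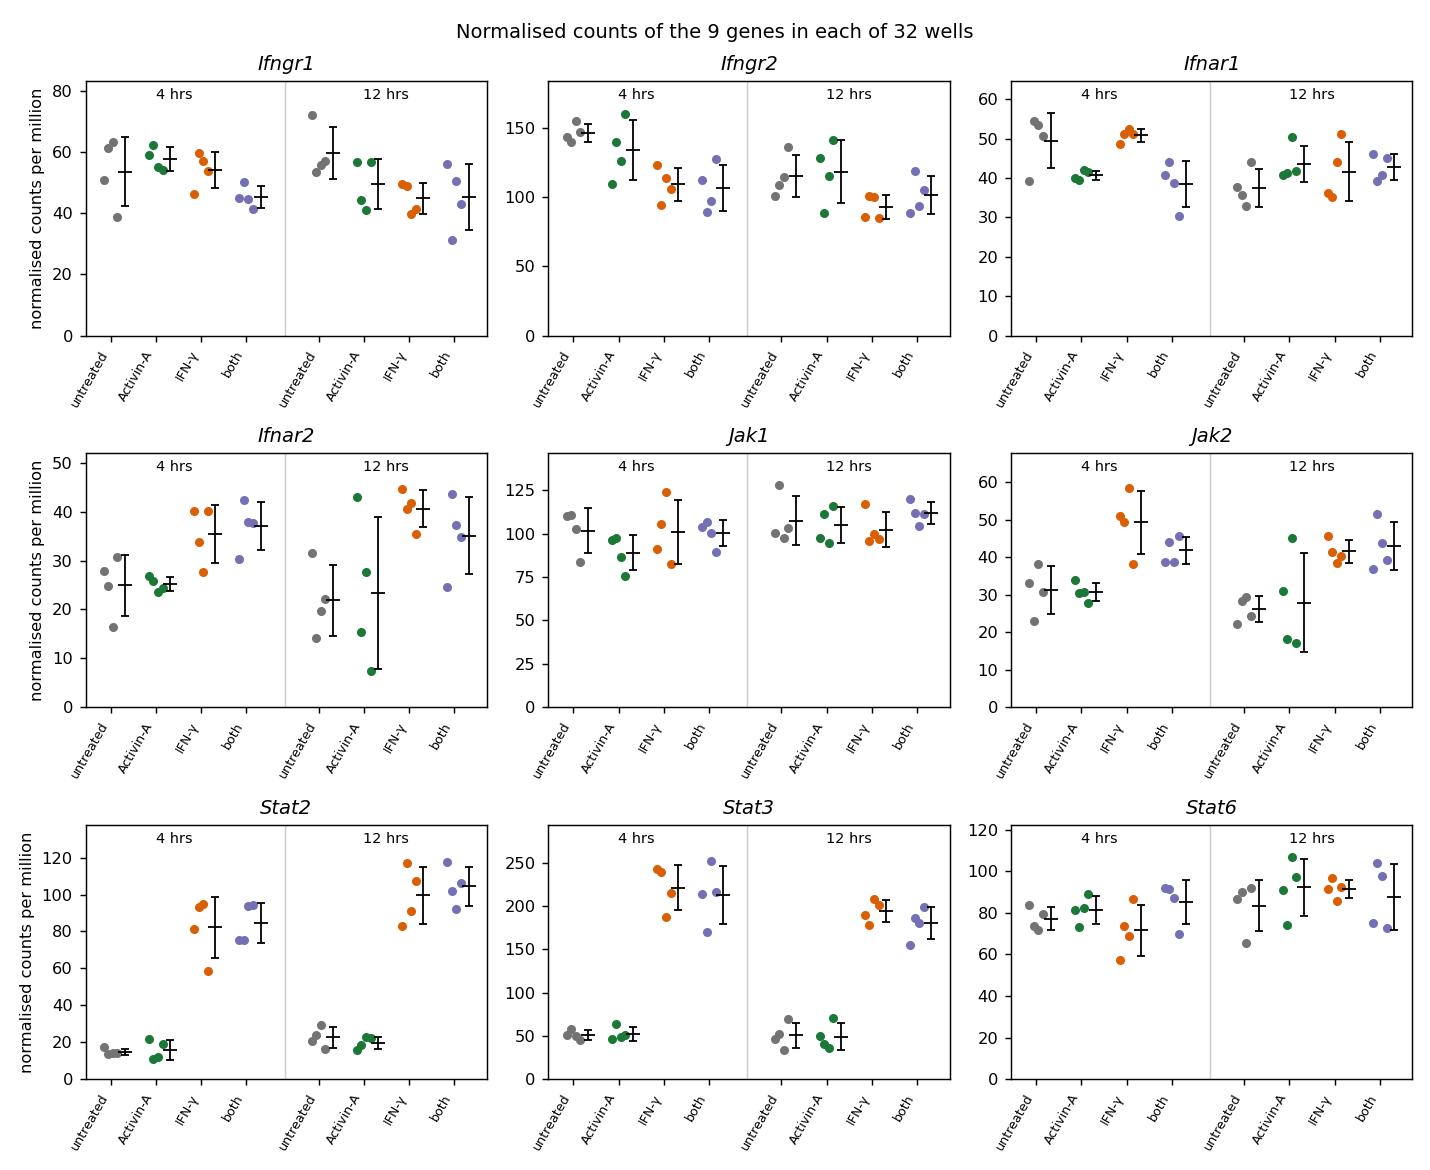
Normalised counts (CPM) of the 9 genes in each well (points; y axis), by treatment and time (x axis), with the mean and SD of the 4 wells beside them. Every well with IFN-γ lies above every well without it for Stat2 and Stat3, with 58.8 against at most 29.5 CPM for Stat2.

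Stat2, the interferon-specific STAT, was measured in untreated wells at 4 hrs at 17.5, 13.4, 14.2 and 13.9 CPM, and with IFN-γ at 81.5, 93.5, 94.9 and 58.8 CPM. By 12 hrs untreated wells held 20.7, 24.0, 29.5 and 16.3 CPM and the IFN-γ wells 83.1, 117, 91.2 and 107 CPM. The groups did not overlap at either time, and the lowest well with IFN-γ was above the highest well of any group without it. Its log2 fold change was 2.45 ± 0.19 at 4 hrs (SE, 95% interval 2.07 to 2.85, adjusted p = 6.73e-16, edgeR) and 2.14 ± 0.16 at 12 hrs (1.84 to 2.46, adjusted p = 2.23e-22), or 5.47-fold and 4.42-fold. In order of level, the 4 groups without IFN-γ ran from 14.7 to 22.6 CPM and the 4 groups with it from 82.2 to 105 CPM, and within each of these sets neighbouring groups overlapped.

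Stat3 was the other gene with a large rise. Its untreated wells at 4 hrs held 50.6, 58.3, 50.2 and 44.7 CPM, and its IFN-γ wells 243, 240, 187 and 215 CPM. The untreated wells of 12 hrs held 46.8, 51.6, 33.9 and 69.7 CPM against 189, 179, 208 and 201 CPM with IFN-γ. These groups did not overlap either. Its log2 fold change was 2.13 ± 0.12 at 4 hrs (SE, 95% interval 1.89 to 2.38, adjusted p = 7.89e-22, edgeR) and 1.96 ± 0.12 at 12 hrs (1.72 to 2.2, adjusted p = 2.62e-27). The means of the groups with IFN-γ ran from 180 to 221 CPM and those of the groups without it from 49.2 to 52.3 CPM.

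Stat6, the STAT of interleukins 4 and 13, was not called. Its untreated wells ranged from 72.0 to 83.8 CPM at 4 hrs and from 65.6 to 91.7 CPM at 12 hrs, and its IFN-γ wells from 57.2 to 86.9 and from 85.8 to 96.5 CPM. The groups overlapped at both times. The 95% interval of the log2 fold change was −0.34 to 0.18 at 4 hrs and −0.11 to 0.37 at 12 hrs.

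Of the kinases, Jak2 rose and Jak1 was not called. Jak2 was measured at 33.2, 22.9, 38.2 and 30.8 CPM in untreated wells at 4 hrs and at 51.1, 49.4, 58.4 and 38.3 CPM with IFN-γ. The 12 hrs untreated wells held 22.3, 28.5, 29.5 and 24.4 CPM and the IFN-γ wells 45.8, 41.5, 38.6 and 40.5 CPM. All IFN-γ wells were above all untreated wells at both times, narrowly so at 4 hrs. The log2 fold change was 0.64 ± 0.17 at 4 hrs (SE, 95% interval 0.30 to 0.99, adjusted p = 0.0114, edgeR) and 0.67 ± 0.19 at 12 hrs (0.29 to 1.06, adjusted p = 0.0122). DESeq2's Wald test gave adjusted p of 0.0784 and 0.101 for the same differences. The 4 hrs call was also lost without NT_4H replicate 2 (adjusted p = 0.101, edgeR) or IFNy_4H replicate 3 (0.0607), and the 12 hrs call without NT_12H replicate 1 (0.0806).

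Jak1, the kinase shared by all interferon receptors, lay between 83.4 and 111 CPM in untreated wells and between 82.6 and 124 CPM in IFN-γ wells at 4 hrs. At 12 hrs it lay between 97.3 and 128 CPM and between 95.5 and 117 CPM, respectively. Its log2 fold change had a 95% interval of −0.27 to 0.21 at 4 hrs and −0.30 to 0.13 at 12 hrs, while that of Jak2 lay above 0.28 at both times. Whether the responses of the kinases differ from each other was not tested.

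**Figure D2:**
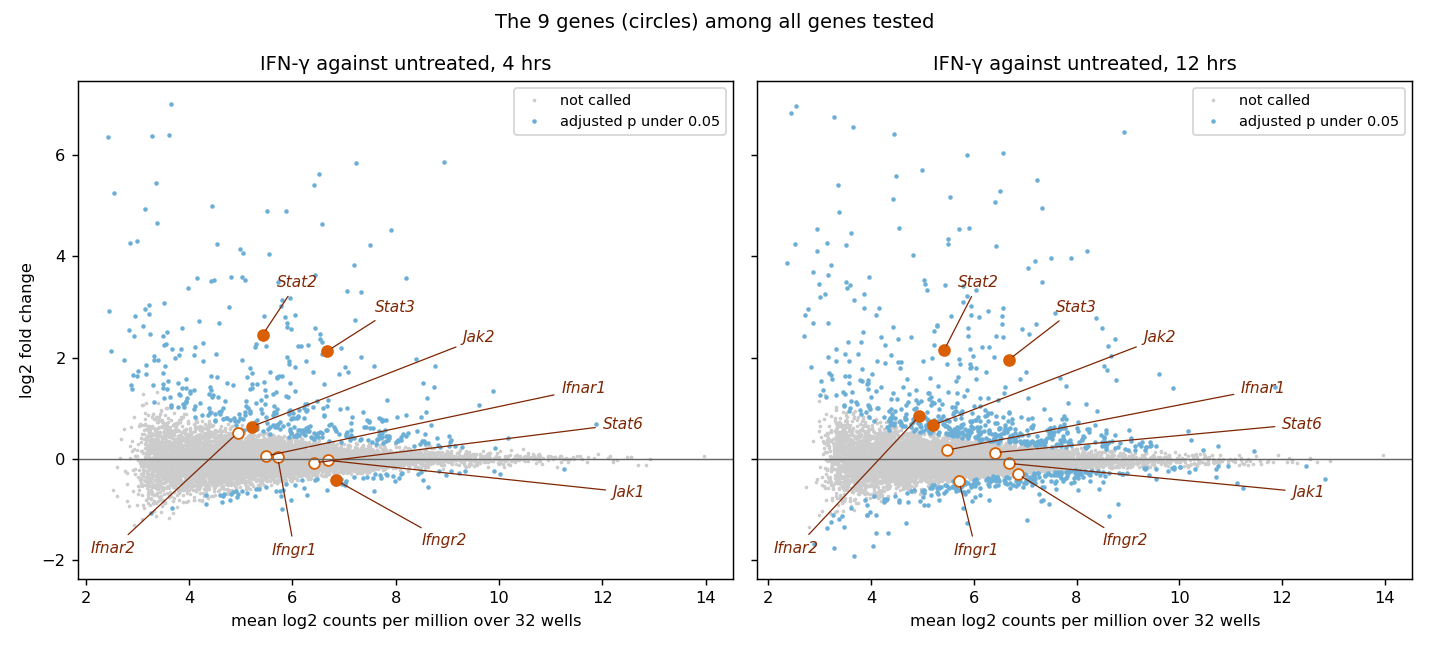
Log2 fold change of IFN-γ against untreated (y axis) by mean log2 CPM (x axis) for all genes tested at 4 and 12 hrs; blue points and filled circles have an adjusted p under 0.05. Stat2 and Stat3 lie at 2.45 and 2.13 at 4 hrs, and the other 7 genes between −0.42 and 0.64.

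Of the receptor chains, Ifngr2 fell at 4 hrs and Ifnar2 rose at 12 hrs, and the others were not called. Ifngr2, the signal-transducing chain of the IFN-γ receptor, was at 143, 140, 155 and 147 CPM in untreated wells at 4 hrs and at 123, 94.4, 114 and 106 CPM with IFN-γ. All 4 IFN-γ wells were below all 4 untreated wells. The log2 fold change was −0.42 ± 0.11 (SE, 95% interval −0.65 to −0.20, adjusted p = 0.0117, edgeR). DESeq2 gave an adjusted p of 0.0521, and without IFNy_4H replicate 2 the edgeR value was 0.117. Untreated wells at 12 hrs held 101, 109, 115 and 136 CPM and the IFN-γ wells 85.5, 101, 99.7 and 85.0 CPM. They overlapped, and the log2 fold change of −0.30 ± 0.12 did not pass the test (adjusted p = 0.102, edgeR).

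Ifngr1, the ligand-binding chain, had a log2 fold change of 0.04 ± 0.15 at 4 hrs (SE, adjusted p = 0.951, edgeR). At 12 hrs its untreated wells held 72.2, 53.4, 55.8 and 56.9 CPM and its IFN-γ wells 49.4, 48.8, 39.7 and 41.3 CPM. The groups did not overlap, but the log2 fold change of −0.44 ± 0.15 missed the threshold (adjusted p = 0.0564). It was called without NT_12H replicate 2 (adjusted p = 0.0409), without ActA_12H replicate 3 (0.0476), or when only the 8 compared wells were fitted (0.0469).

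Ifnar2, which binds type I interferons with high affinity, was at 27.9, 24.8, 16.4 and 30.8 CPM in untreated wells at 4 hrs and at 40.1, 33.8, 27.7 and 40.0 CPM with IFN-γ. These overlapped, and the log2 fold change of 0.52 ± 0.19 was not called (adjusted p = 0.143, edgeR). At 12 hrs the untreated wells held 31.5, 14.2, 19.7 and 22.1 CPM and the IFN-γ wells 44.6, 40.5, 41.8 and 35.5 CPM, without overlap. The log2 fold change was then 0.84 ± 0.22 (SE, 95% interval 0.40 to 1.29, adjusted p = 0.00476, edgeR), or 1.79-fold. With DESeq2 the adjusted p was 0.286, and without NT_12H replicate 2 the edgeR log2 fold change was 0.66 with an adjusted p of 0.0635.

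Ifnar1, the other type I receptor chain, ranged from 39.3 to 54.5 CPM in untreated wells and from 48.7 to 52.6 CPM in IFN-γ wells at 4 hrs. The ranges at 12 hrs were 32.8 to 44.1 and 35.3 to 51.2 CPM. Both pairs of groups overlapped. The 95% interval of its log2 fold change was −0.24 to 0.36 at 4 hrs and −0.15 to 0.51 at 12 hrs. Il10rb, the interleukin-10 receptor chain whose gene lies between Ifnar2 and Ifnar1, had log2 fold changes of 0.07 ± 0.18 and 0.06 ± 0.18 (SE, adjusted p = 0.928 and 0.919, edgeR).

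Marker sums in the same wells were as follows. At 12 hrs the 3 fibroblast markers summed to 50.7 to 64.1 CPM in untreated wells and 46.1 to 47.0 CPM in IFN-γ wells, without overlap, and the 3 leukocyte markers to 13.1 to 20.0 and 14.0 to 18.7 CPM. At 4 hrs the fibroblast markers summed to 38.2 to 52.4 and 36.5 to 62.0 CPM, and the leukocyte markers to 14.2 to 19.1 and 2.92 to 23.4 CPM. Their part in the results above was not tested. The wells held a single cultured line, and which cells these marker counts came from was not measured.

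The IFN-γ effect was measured again, in other wells, by comparing both factors with Activin-A alone. Stat2 and Stat3 rose again at both times. At 4 hrs these 2 of the 9 genes were called, both higher, against 6.07% of all genes called and 4.41% called as higher. At 12 hrs 3 were called, all higher, the third being Jak2, against 9.62% of all genes called and 6.18% called as higher. The median log2 fold change of the 9 genes was 0.18 at 4 hrs and 0.11 at 12 hrs, and that of all genes −0.01 at both times.

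In these wells Stat2 was at 21.6, 10.6, 12.3 and 18.9 CPM with Activin-A at 4 hrs and at 75.4, 75.5, 93.7 and 94.1 CPM with both factors. At 12 hrs it was at 16, 18.2, 22.6 and 22.1 CPM and at 118, 102, 92.3 and 106 CPM. Stat2 thus had a log2 fold change of 2.33 ± 0.18 at 4 hrs (SE, adjusted p = 3.10e-16, edgeR) and 2.43 ± 0.17 at 12 hrs (adjusted p = 2.09e-24), with no overlap between groups.

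Stat3 was at 45.9, 63.8, 49.0 and 50.4 CPM with Activin-A and at 214, 170, 252 and 216 CPM with both factors at 4 hrs. At 12 hrs it was at 50.3, 40.3, 35.9 and 70.1 CPM and at 155, 186, 180 and 199 CPM. This gave a log2 fold change of 2.06 ± 0.12 at 4 hrs (SE, adjusted p = 1.75e-21, edgeR) and 1.89 ± 0.13 at 12 hrs (adjusted p = 5.54e-25), and the groups were again apart.

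Jak2 was at 34.1, 30.4, 30.6 and 27.9 CPM with Activin-A and at 38.7, 44.1, 38.8 and 45.7 CPM with both factors at 4 hrs. The groups did not overlap, but the log2 fold change of 0.44 ± 0.17 was not called (adjusted p = 0.140, edgeR). At 12 hrs it was at 31.1, 18.2, 45.2 and 17.2 CPM and at 37.0, 51.5, 43.9 and 39.3 CPM. The Activin-A wells were widely spread and overlapped with the others, and the log2 fold change was 0.60 ± 0.19 (SE, adjusted p = 0.0312, edgeR). This call was lost with DESeq2 (adjusted p = 0.166) and, with edgeR, without ActA_12H replicate 2 (0.209) or 4 (0.146) or without ActA_IFNy_12H replicate 2 (0.156) or 3 (0.0689).

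Ifnar2 was at 26.9, 25.8, 23.6 and 24.3 CPM with Activin-A at 4 hrs and at 30.4, 42.4, 37.8 and 37.6 CPM with both factors, without overlap. Its log2 fold change of 0.57 ± 0.19 lay just outside the threshold (adjusted p = 0.0544, edgeR), and inside it without NT_4H replicate 3 (0.0470) or ActA_IFNy_4H replicate 1 (0.0361). At 12 hrs the Activin-A wells held 43.1, 15.4, 27.7 and 7.38 CPM, the last from 6 counts, against 24.7, 43.6, 37.4 and 34.7 CPM with both factors. The groups overlapped, and the log2 fold change was 0.49 ± 0.23 (SE, adjusted p = 0.213, edgeR). Without ActA_12H replicate 1, the highest of the Activin-A wells, it was 1.02 with an adjusted p of 0.00326.

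Ifngr2 was at 109, 140, 126 and 160 CPM with Activin-A and at 112, 89.1, 97.4 and 127 CPM with both factors at 4 hrs, which overlapped. The log2 fold change was −0.31 ± 0.11 (SE, adjusted p = 0.0992, edgeR). Without ActA_4H replicate 1, the well that stood apart, it was −0.42 with an adjusted p of 0.00944, and without ActA_IFNy_4H replicate 4 it was −0.41 with 0.0311. At 12 hrs the log2 fold change was −0.21 ± 0.12 (SE, adjusted p = 0.304). The remaining genes, Ifngr1, Ifnar1, Jak1 and Stat6, had log2 fold changes between −0.34 and 0.18 over both times, and none was called. Of these, Ifngr1 was lower in all wells with both factors at 4 hrs, with −0.34 ± 0.15 (SE, adjusted p = 0.216, edgeR). At 12 hrs its groups overlapped, with −0.13 ± 0.16 (adjusted p = 0.751).

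In these wells at 12 hrs the 3 fibroblast markers summed to 34.7 to 44.8 CPM with both factors and 54.1 to 73.9 CPM with Activin-A, without overlap, and at 4 hrs to 43.9 to 68.1 and 43.2 to 74.7 CPM. The 3 leukocyte markers overlapped in both, at 12.7 to 21.3 against 7.68 to 17.5 CPM at 12 hrs and 12.5 to 18.9 against 16.2 to 25.8 CPM at 4 hrs. The part of these markers in the rises of Stat2, Stat3 and Jak2 was not tested.

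**Figure D3:**
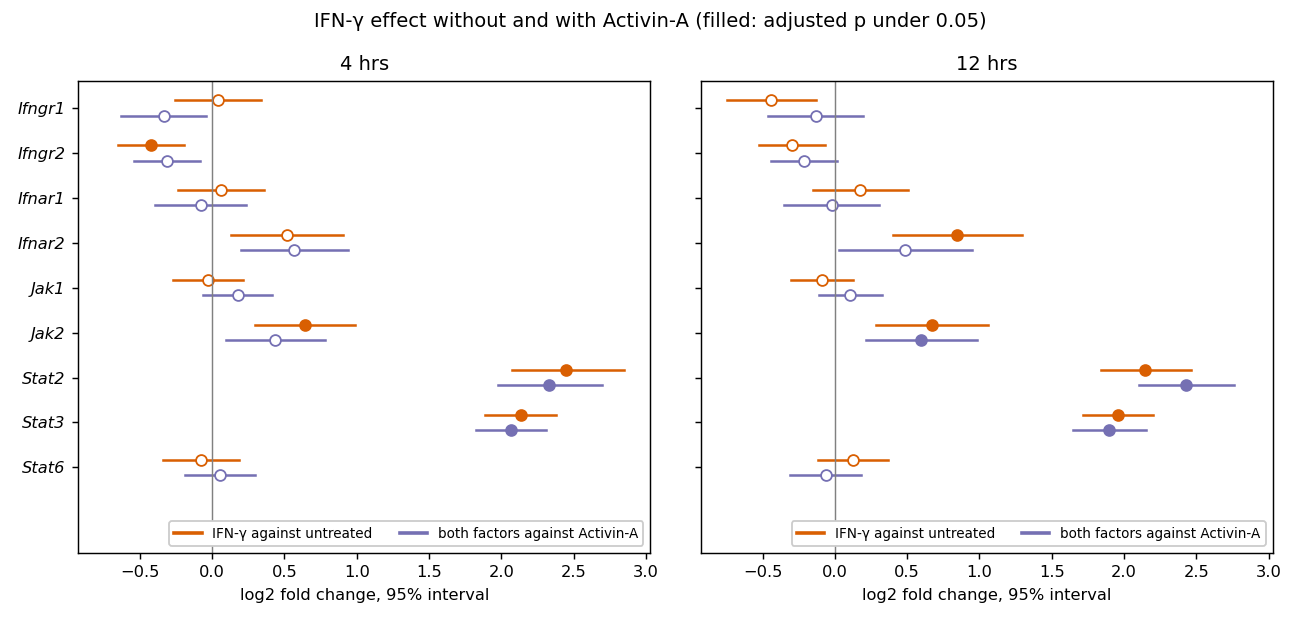
Log2 fold change (x axis; points, with 95% intervals as lines) of the 9 genes for IFN-γ against untreated and for both factors against Activin-A at 4 and 12 hrs; filled points have an adjusted p under 0.05. The 8 values of Stat2 and Stat3 lie between 1.89 and 2.45.

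The next question was whether Activin-A changed these genes. None of the 9 was called for Activin-A against untreated at 4 or 12 hrs, by edgeR or by DESeq2, and none had an unadjusted p under 0.05 in edgeR. The background was 1.64% of all genes called at 4 hrs and 2.41% at 12 hrs, and 11.3% at an unadjusted p under 0.05 at each time. The 9 log2 fold changes ran from −0.26 to 0.19 at 4 hrs and from −0.28 to 0.21 at 12 hrs. Their 95% intervals all lay between −0.57 and 0.72 at 4 hrs and between −0.67 and 0.65 at 12 hrs, so smaller effects could not be told from none at this depth. The lowest adjusted p was 0.537 at 4 hrs, for Ifnar1, and 0.483 at 12 hrs, for Ifngr1.

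Ifnar1 was at 39.3, 54.5, 53.4 and 50.6 CPM in untreated wells at 4 hrs and at 40.0, 39.5, 42.0 and 41.4 CPM with Activin-A. Of the untreated wells, 1 lay below all Activin-A wells and the others above them. For Stat2 the log2 fold change was 0.19 ± 0.26 at 4 hrs (SE, adjusted p = 0.865, edgeR) and −0.22 ± 0.23 at 12 hrs (0.788), and for Stat3 it was −0.0026 ± 0.16 and −0.05 ± 0.16. Without ActA_4H replicate 1 the 4 hrs values of the 9 genes ran from −0.26 to 0.09, and none was called.

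With IFN-γ present in both groups, none of the 9 genes was called for both factors against IFN-γ, by edgeR or by DESeq2, although DESeq2 gave no adjusted p for Ifnar1, Ifnar2 and Jak2 at 12 hrs. The background was 0.81% of all genes called at 4 hrs and 1.03% at 12 hrs. At an unadjusted p under 0.05 edgeR gave 1 of the 9 genes at 4 hrs, Ifnar1, and 0 at 12 hrs, against 9.3% and 10.3% of all genes, so that 1 of 9 was near the background. Ifnar1 was at 48.7, 51.1, 52.6 and 51.1 CPM with IFN-γ and at 40.8, 44.1, 38.8 and 30.5 CPM with both factors at 4 hrs. The groups did not overlap, but the log2 fold change of −0.40 ± 0.15 did not pass the test (SE, 95% interval −0.71 to −0.09, adjusted p = 0.314, edgeR). For Stat2 the 95% interval was −0.21 to 0.33 at 4 hrs and −0.18 to 0.29 at 12 hrs, and for Stat3 −0.26 to 0.12 and −0.31 to 0.08.

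**Figure D4:**
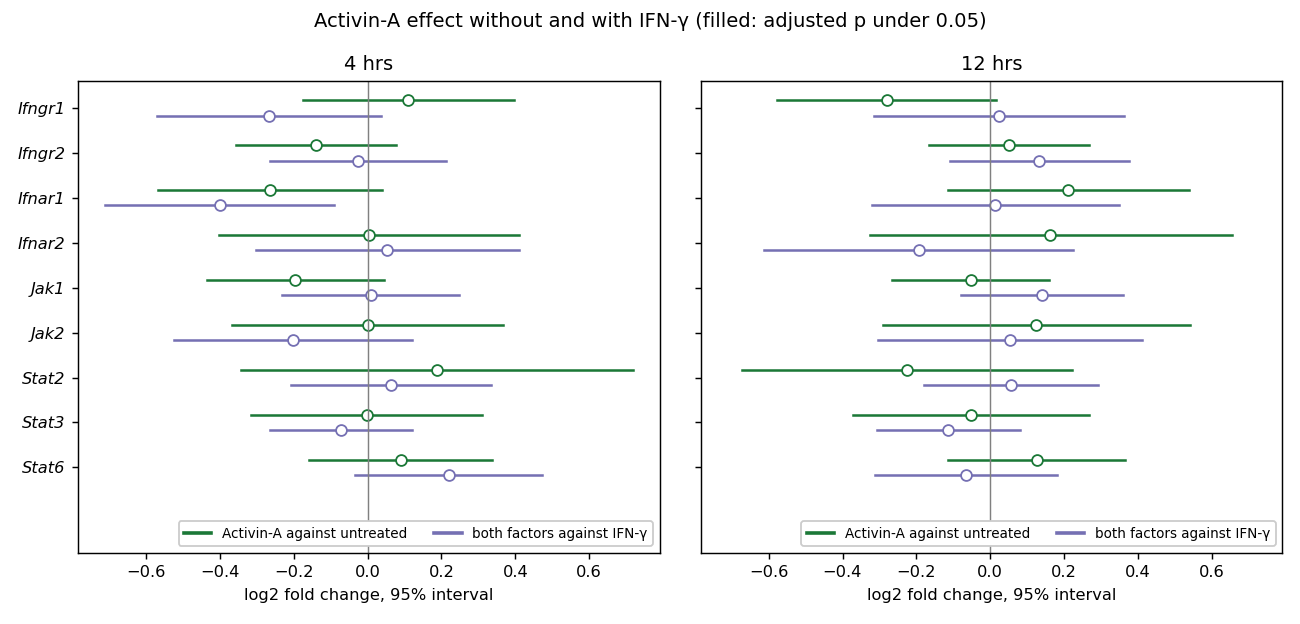
Log2 fold change (x axis; points, with 95% intervals as lines) of the 9 genes for Activin-A against untreated and for both factors against IFN-γ at 4 and 12 hrs. No point is filled, since none had an adjusted p under 0.05, and all values lie between −0.40 and 0.22.

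The interaction asks whether the IFN-γ effect differed with Activin-A present. None of the 9 genes was called at 4 hrs, where edgeR called 0% of all genes (0 of 9137, with 505 at an unadjusted p under 0.05, and 0 by DESeq2), or at 12 hrs, where it called 0.0111% (1 of 8971). None of the 9 had an unadjusted p under 0.05, against 5.53% and 6.82% of all genes, and DESeq2 called none. For Stat2 the difference of log2 fold changes was −0.12 ± 0.30 at 4 hrs (SE, 95% interval −0.72 to 0.47) and 0.28 ± 0.25 at 12 hrs (−0.22 to 0.79). For Stat3 it was −0.07 ± 0.18 (−0.44 to 0.30) and −0.06 ± 0.19 (−0.43 to 0.31). The widest interval was that of Ifnar2 at 12 hrs, −1.0 to 0.29.

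The effects at 12 hrs were also compared with those at 4 hrs. None of the 9 genes was called for the change of the IFN-γ effect, against 0.579% of all 9332 genes, and none for the change of the Activin-A effect, against 0.0214%. DESeq2 called none in either comparison, but gave no adjusted p for Ifngr1, Ifnar1, Ifnar2 and Jak2 in the first. At an unadjusted p under 0.05, edgeR gave 1 gene in each: Ifngr1 for IFN-γ, with a difference of −0.47 ± 0.22 (SE, adjusted p = 0.607), and Ifnar1 for Activin-A, with 0.48 ± 0.22 (adjusted p = 0.782). Of all genes 7.38% and 6.1% had such a p, so that 1 of 9 was near the background. The IFN-γ effect on Stat2 was lower at 12 than at 4 hrs by a difference of −0.29 ± 0.28 and that on Stat3 by −0.17 ± 0.20, both within their error (SE, adjusted p = 0.902 and 0.927). The Ifnar2 effect, called only at 12 hrs, differed by 0.34 ± 0.32 (adjusted p = 0.902), so a difference between the times was not shown. The same holds for Ifngr2, called only at 4 hrs, with 0.14 ± 0.17 (adjusted p = 0.927).

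**Figure D5:**
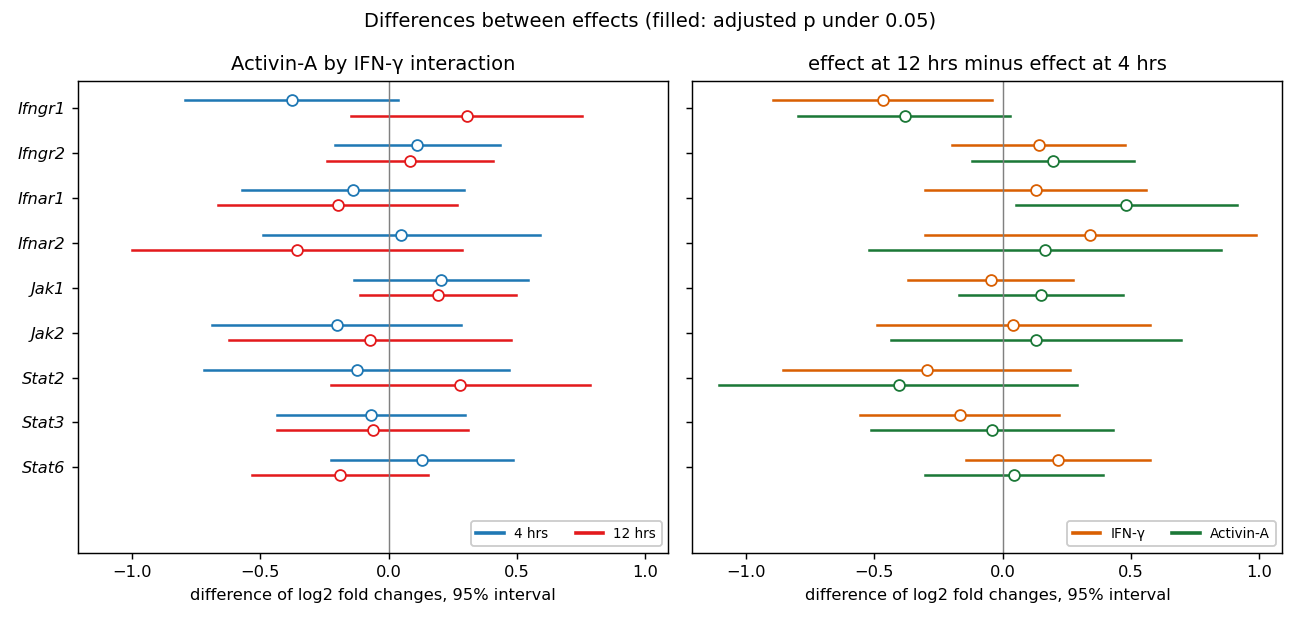
Differences of log2 fold changes (x axis; points, with 95% intervals as lines) for the 9 genes: the interaction of Activin-A and IFN-γ at 4 and 12 hrs (left), and the IFN-γ and Activin-A effects at 12 hrs minus those at 4 hrs (right). No point is filled, since none had an adjusted p under 0.05, and all values lie between −0.47 and 0.48.

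In untreated cells, 1 of the 9 genes differed between 12 and 4 hrs, against 4.9% of all genes called and 2.57% called as lower. Ifngr2 was lower at 12 hrs in every well, at 101 to 136 CPM against 140 to 155 CPM, with a log2 fold change of −0.36 ± 0.11 (SE, 95% interval −0.58 to −0.14, adjusted p = 0.0422, edgeR). The call was lost with DESeq2 (adjusted p = 0.116) and when any one of 7 of the 8 wells compared was left out (0.0539 to 0.205). Ifnar1 and Stat2 also had an unadjusted p under 0.05, as did 17.5% of all genes, but were not called, with log2 fold changes of −0.39 ± 0.15 and 0.61 ± 0.25 (adjusted p = 0.132 and 0.156).

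As a description over the 8 group means of log2 CPM, the genes most like each called gene were taken by Pearson's r among 9325 others. For Stat3 these were Ifi204, Irgm1 and Igtp, with r of 0.999, 0.999 and 0.998. For Stat2 they were Parp3, Nub1 and Rmdn3, with 0.999, 0.996 and 0.995. Jak2 was closest to Ggct, Rnf115 and Adgrl2 (0.987, 0.984 and 0.981), and Ifnar2 to Lysmd2, Ell2 and Tor1aip1 (0.989, 0.986 and 0.985). For Ifngr2, whose level was lower with IFN-γ, they were Fzd3, Wdr75 and Eef1e1 (0.967, 0.955 and 0.955). Among the 9 genes themselves, r was 0.971 for Stat2 with Stat3, 0.958 for Jak2 with Stat3, 0.951 for Ifnar2 with Stat3 and −0.878 for Ifngr2 with Stat2. The genes compared were counted in the same libraries, and most of these r values reflect the contrast between the 4 groups with IFN-γ and the others.

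Other genes of the pathway were taken as 4 lists of 71 genes, of which 48 were tested at each time. With IFN-γ alone, 9 were higher and 1 lower at 4 hrs, and 12 were higher and 1 lower at 12 hrs. For both factors against Activin-A, 8 were higher and 1 lower at 4 hrs, and 14 were higher and 2 lower at 12 hrs. DESeq2 called 10 of the list genes where edgeR called these 16 at 12 hrs. Of all genes, edgeR called 5.06% at 4 hrs and 9.25% at 12 hrs with IFN-γ alone, 4.29% and 6.43% as higher. For both factors against Activin-A it called 6.07% and 9.62%, with 4.41% and 6.18% as higher. Counts of each list below are set beside these shares, and median changes beside the all-gene median of −0.01.

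Of 7 other JAK and STAT genes and Irf9, 4 were tested, and 2 rose with IFN-γ at each time, with a median log2 fold change of 0.84 at 4 hrs and 1.18 at 12 hrs. Irf9, the DNA-binding partner of STAT2, rose from 27.7 ± 3.93 to 83.7 ± 10.9 CPM at 4 hrs (SD, n = 4 each) and from 28.8 ± 3.74 to 112 ± 11.3 CPM at 12 hrs. Its log2 fold change was 1.62 ± 0.16 and 1.97 ± 0.14 (SE, adjusted p = 1.53e-12 and 8.06e-23, edgeR). For both factors against Activin-A, 2 rose at 4 hrs and 4 at 12 hrs, with Irf9 at 1.47 ± 0.15 and 1.93 ± 0.15 (SE, adjusted p = 1.99e-11 and 2.41e-20). Tyk2 and Stat5b, called only in this comparison at 12 hrs, were close to the threshold (adjusted p = 0.0448 and 0.0491, edgeR). DESeq2 called 2 genes of this list there.

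Of 28 other receptor chains that signal through JAK kinases, 10 were tested at 4 hrs and 11 at 12 hrs. With IFN-γ, 2 rose at 4 hrs and 5 at 12 hrs, and none fell, with a median log2 fold change of 0.10 and 0.34. Il15ra, the high-affinity interleukin-15 receptor chain, had 0 to 2 counts in untreated wells at either time and 16 to 35 with IFN-γ (adjusted p = 2.66e-12 at 4 hrs and 1.69e-14 at 12 hrs, edgeR). Il13ra1, which pairs with the interleukin-4 receptor chain, had log2 fold changes of 2.25 ± 0.33 and 3.49 ± 0.36 (SE, adjusted p = 3.26e-07 and 9.65e-15). At 12 hrs Il12rb1, a chain of the interleukin-12 receptor, had 0 to 2 counts in untreated wells and 6 to 15 with IFN-γ (adjusted p = 2.41e-07), and Ghr, the growth hormone receptor, had a log2 fold change of 0.24 ± 0.07 (adjusted p = 0.0111). For both factors against Activin-A, 2 rose at 4 hrs and 5 at 12 hrs, the latter including Crlf2, the receptor of thymic stromal lymphopoietin, with 0.93 ± 0.20 (SE, adjusted p = 0.000228). In untreated cells Il4ra was lower at 12 than at 4 hrs, by a log2 fold change of −0.72 ± 0.15 (adjusted p = 0.000377).

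Of 20 negative regulators of JAK and STAT signaling, 19 were tested, and at each time 3 rose and 1 fell with IFN-γ, with a median log2 fold change of 0.16 at 4 hrs and 0.09 at 12 hrs. Socs1, an inhibitor of JAK kinases, rose from 42.2 ± 2.08 to 201 ± 16.8 CPM at 4 hrs and from 31.7 ± 2.80 to 149 ± 19.4 CPM at 12 hrs (SD, n = 4 each). Socs3, the inhibitor that acts at interleukin-6 type receptors, had log2 fold changes of 1.82 ± 0.14 and 1.79 ± 0.14 (SE, adjusted p = 7.09e-17 and 1.87e-20, edgeR). Usp18, which binds IFNAR2 and restrains type I interferon signaling, was at 23.3 ± 6.5 CPM in untreated wells and rose to 60.9 ± 9.3 with IFN-γ at 4 hrs, and at 12 hrs the levels were 26.6 ± 6.33 and 97.1 ± 25.9 CPM (SD, n = 4 each, adjusted p = 1.81e-08 and 1.56e-17, edgeR). Socs2, a feedback inhibitor of growth hormone signaling, fell, with −0.71 ± 0.22 and −1.45 ± 0.27 (adjusted p = 0.0449 and 1.68e-05). The same counts, 3 higher and 1 lower, were found for both factors against Activin-A at both times, where these 4 genes were again the ones edgeR called. DESeq2 called 3 genes of this list for IFN-γ at 4 hrs and 4 at 12 hrs. For both factors against Activin-A it called 4 and 3.

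Of 16 cofactors and kinases that act on STAT proteins, 15 were tested at 4 hrs and 14 at 12 hrs, and 2 rose with IFN-γ at each time, with a median of −0.07 and 0.03. Nmi, the N-myc and STAT interactor, rose from 8.28 ± 2.41 to 40.0 ± 3.39 CPM at 4 hrs and from 9.73 ± 3.80 to 48.3 ± 5.41 CPM at 12 hrs (SD, n = 4 each). Bcl3, a nuclear IκB protein, had 1 to 5 counts in untreated wells and 5 to 14 with IFN-γ at 4 hrs (adjusted p = 0.0197, edgeR). Fyn, a Src family kinase, had a log2 fold change of 0.72 ± 0.22 at 12 hrs (SE, adjusted p = 0.0185). For both factors against Activin-A, 1 rose at 4 hrs, and 2 rose and 1 fell at 12 hrs, where Prkcd, a kinase of STAT serine residues, had 1.21 ± 0.36 and Mapk3, the kinase ERK1, −0.24 ± 0.08 (SE, adjusted p = 0.0132 and 0.0437). Prkcd had 3 to 10 counts in these Activin-A wells, and averaged 10.9 CPM in untreated and 12.0 CPM in IFN-γ wells at 12 hrs. DESeq2 called 1 gene of this list in each of these comparisons at each time.

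Across the 4 lists, Activin-A against untreated gave 0 called genes at 4 hrs by edgeR and by DESeq2, with 4 at an unadjusted p under 0.05. At 12 hrs it gave 1 called gene, with 7 at an unadjusted p under 0.05. The gene called was Sh2b3, the adaptor LNK that restrains JAK2, with a log2 fold change of −0.41 ± 0.10 (SE, adjusted p = 0.00717, edgeR), from 139 ± 9.13 to 103 ± 8.6 CPM (SD, n = 4 each). Both factors against IFN-γ gave 0 called genes at 4 and 12 hrs by both tools, with 6 and 5 at an unadjusted p under 0.05. Of all genes, edgeR called 1.64% and 2.41% for Activin-A at 4 and 12 hrs, and 0.81% and 1.03% for both factors against IFN-γ. An unadjusted p under 0.05 was found for 11.3% with Activin-A at each time, and for 9.3% and 10.3% with both factors. With 48 list genes tested, these list counts were near the background. For the interaction, 0 of the 48 were called at 4 or 12 hrs by either tool. There 5 and 7 had an unadjusted p under 0.05 in edgeR, against 5.53% and 6.82% of all genes.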

How the data were processed

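BRB-seq libraries of 32 wells were analysed from the raw read count per gene and well that the authors deposited. The submitters' processing notes name STAR 2.7.10b, featureCounts, DESeq2 1.36.0 and build GRCm39 (mm39). BRB-seq counts 3′ ends, so levels of different genes were not compared, and whether duplicate reads were removed is not given in the sources used here.

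Levels (CPM, counts scaled to each well's normalised library size) used TMM factors over all 32 wells. Log2 CPM, used only for the likeness of genes, had a prior count of 2. Each gene was tested with the quasi-likelihood test of edgeR 4.0.16 in R 4.3.3 (filterByExpr, TMM factors, Benjamini-Hochberg adjustment over all genes tested), with the 16 wells of a time point in 1 fit, or all 32 for contrasts between times. Alternatives were DESeq2 1.42.0, RLE factors, other filters on low counts, a replicate block, an adjusted p under 0.01, other sets of wells and each well left out. The method was tested on simulated data. Depth, at most 1455074 counts per well, limits precision.

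The genes and lists were chosen with earlier results of these data known. All 9 genes were named, and of each list the called genes, up to 4 by lowest adjusted p. Also named were the 3 genes most like each gene called with IFN-γ, Irf1 and Ccn2 as checks of the treatments, and the neighbours of the receptor cluster. Some genes that this rule selects are not reported here. Promoters and gene order came from RefSeq on GRCm38.p6, another build than that of the counts, and all 9 genes matched by symbol. Proteins were not used here.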

Additional observations from a re-analysis of the deposited data

Results flagged for a closer look

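Of 72 sets of 4 wells (9 genes in 8 groups), 1 held a well far from the other wells of its group, and chance flags about 1 in 20 such sets. Ifnar1 was at 50.3 CPM in ActA_12H replicate 3 and at 40.7 to 41.8 CPM in the other wells of that group, so that the gap was 0.883 of the group's range and passed Dixon's test at the 95% level.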

How the results depend on the processing

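The calls of Stat2 and Stat3 for IFN-γ, without and with Activin-A, were kept under every alternative in which the gene was tested; Stat2 was not tested at 4 hrs, nor Ifnar2 at 12 hrs, where at least 10 counts were required in every well. The smaller changes depended on the setting. With DESeq2 2 of the 9 genes were called for IFN-γ at 4 hrs, 2 at 12 hrs and 0 for untreated at 12 against 4 hrs. With an adjusted p under 0.01 these were 2 for IFN-γ at 4 hrs and 0 for untreated cells, and with at least 10 counts in every well 1 was called for both factors against Activin-A at 4 hrs, since Stat2 was then not tested. Leaving out each well in turn gave 3 to 4 genes for IFN-γ at 4 hrs, 3 to 5 at 12 hrs, 2 to 3 and 2 to 4 for both factors against Activin-A, 0 to 1 for untreated at 12 against 4 hrs, and 0 in the other comparisons. Over 3028 refitted log2 fold changes of the 9 genes, 22 calls were lost and 8 gained, and no called value changed sign. The adjusted p under 0.01, which changes the threshold and not the fit, lost 5 more calls. Beyond fewer wells or genes, the cause was not tested.

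No pairing of the wells by replicate number was seen over all genes that passed the filter. The deviations of same-numbered wells of different groups had a mean correlation of −0.00023, with 0 of 112 pairs over 0.1. A mean over all these genes could not show an effect shared by only some of them. Fitted as a block, the replicate number left 4, 0, 0, 2 and 0 of the 9 genes called at 4 hrs and 4, 0, 0, 3 and 0 at 12 hrs for IFN-γ, Activin-A, both factors against IFN-γ, both factors against Activin-A and the interaction, as without it.

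Among all genes, DESeq2 called 84 where edgeR called 150 for Activin-A at 4 hrs, and 136 against 216 at 12 hrs. For both factors against IFN-γ it called 44 against 74 and 61 against 92, for both factors against Activin-A at 12 hrs 549 against 863, and for untreated at 12 against 4 hrs 284 against 457. Leaving out wells moved the count for both factors against IFN-γ at 4 hrs between 47 and 134, the latter without ActA_4H replicate 1.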
